A study of Homo sapiens with 4 samples.

Results

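The genes of MHC class I antigen presentation were followed through chromatin accessibility in A375, an established human melanoma cell line. Accessibility was read by ATAC-seq, which relies on a transposase, Tn5, that inserts sequencing adapters where DNA is open. The 9 genes were HLA-B, HLA-C, B2M, TAP1, TAP2, TAPBP, PSMB8, PSMB9 and NLRC5. A listed region belonged to them when it overlapped the RefSeq GRCh38.p14 span of a gene extended by 5 kb on both sides. This gave 20 of the 125986 regions in the authors' table. TAP1, TAP2, PSMB8 and PSMB9 are neighbours, so 3 of the 20 regions belonged to more than 1 gene and were counted once. Cells had been grown in DMEM with 10% FBS. The 2 octanoate libraries came from cells given 1 mM octanoate, a medium-chain fatty acid, for 48 h, and the 2 vehicle libraries from cells given isopropanol for the same time. The comparison asked which regions differ in accessibility after octanoate. All 4 libraries come from 1 cell line, and the labels do not say whether libraries of a group came from separate cultures, so the p-values measure only the spread between these libraries. The table holds 1 mean and 1 fold change per region and no value for a single library, so no level per library can be given. In these bulk libraries, fewer cells with an open region and less opening per cell cannot be told apart.

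MHC class I molecules carry peptides from inside the cell to its surface, where CD8+ T cells read them. A heavy chain such as HLA-B or HLA-C pairs with beta-2-microglobulin, the product of B2M. Peptides are cut by the proteasome, in which PSMB8 and PSMB9 replace constitutive catalytic subunits, are pumped into the endoplasmic reticulum by the TAP1-TAP2 transporter and are loaded with the help of tapasin, the product of TAPBP. NLRC5 is a transactivator of genes in this pathway: it acts at promoters through a module bound by RFX, CREB/ATF and NF-Y proteins. Interferon gamma raises the pathway in part through IRF1, and melanomas are known for losing parts of it.

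The promoters show where these factors could bind, and they are printed because listed regions lie on each of them except that of TAPBP. Each line gives the 250 bases before the outermost RefSeq start in GRCh38.p14, read 5′ to 3′ on the strand of the gene. They lie at chr15:44711267-44711516 (B2M, plus strand), chr6:31357180-31357429 (HLA-B, minus), chr6:31272093-31272342 (HLA-C, minus), chr6:32853705-32853954 (TAP1, minus) and chr6:33314079-33314328 (TAPBP, minus). Capitals mark matches on either strand to CCAAT (the letters of an NF-Y site), TGACG (the core of a CREB/ATF site), GAAA followed after any 2 bases by GAAA (the core of an interferon-stimulated element), TTCNNNGAA (a STAT site) or the NF-kB consensus. Matches that overlap run together.
B2M: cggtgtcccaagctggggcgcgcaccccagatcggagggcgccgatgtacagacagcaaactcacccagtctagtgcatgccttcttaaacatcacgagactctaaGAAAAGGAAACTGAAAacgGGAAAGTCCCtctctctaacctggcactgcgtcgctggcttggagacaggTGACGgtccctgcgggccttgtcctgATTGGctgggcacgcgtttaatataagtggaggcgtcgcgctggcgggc
HLA-B: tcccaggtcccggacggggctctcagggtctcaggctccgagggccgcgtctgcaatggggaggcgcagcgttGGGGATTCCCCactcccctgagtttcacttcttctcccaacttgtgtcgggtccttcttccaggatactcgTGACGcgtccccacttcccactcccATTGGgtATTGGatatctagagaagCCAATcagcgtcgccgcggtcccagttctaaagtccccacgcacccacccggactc
HLA-C: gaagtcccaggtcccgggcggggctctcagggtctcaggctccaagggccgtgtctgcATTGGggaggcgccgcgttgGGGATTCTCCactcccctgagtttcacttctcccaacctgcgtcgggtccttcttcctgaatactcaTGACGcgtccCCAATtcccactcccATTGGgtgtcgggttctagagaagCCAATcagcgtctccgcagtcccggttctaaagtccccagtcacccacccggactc
TAP1: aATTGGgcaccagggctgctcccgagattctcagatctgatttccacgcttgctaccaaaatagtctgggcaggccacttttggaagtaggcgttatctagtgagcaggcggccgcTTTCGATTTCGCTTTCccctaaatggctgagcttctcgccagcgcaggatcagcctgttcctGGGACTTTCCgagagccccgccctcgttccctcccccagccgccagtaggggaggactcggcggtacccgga
TAPBP: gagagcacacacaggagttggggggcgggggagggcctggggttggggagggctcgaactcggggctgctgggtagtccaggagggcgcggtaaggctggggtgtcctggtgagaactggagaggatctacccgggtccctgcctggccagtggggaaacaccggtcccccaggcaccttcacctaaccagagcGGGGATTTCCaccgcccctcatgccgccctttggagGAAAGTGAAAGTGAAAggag

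Of the 9 genes, 8 had an entry in the promoter table (NLRC5 had none), with 10 starts in all. CCAAT was found at 5 of the 10 starts, against 32.7% of 22199 upstream stretches of equal length at starts of protein-coding genes; the TAP1 and PSMB9 stretches overlap, and their matches are the same 5 bases. TGACG was found at 6 of 10, against 24.2%. The interferon element core was found at 4 of 10, against 2.71%, and these were B2M, TAP1, TAP2 and TAPBP. The NF-kB consensus was found at 5 of 10, against 5.81%, and TTCNNNGAA at 2 of 10, against 5.92%. In B2M, HLA-B and HLA-C, TGACG was followed by ATTGG, the reverse complement of CCAAT, and the first bases of the pair lay 26, 25 and 25 bases apart. A spacing of 20 to 30 bases in this order occurred in 0.266% of all stretches; this spacing was chosen after the matches had been seen. The HLA-B and HLA-C stretches were identical at 226 of 254 aligned positions (89.0%), and the values of these genes are uncertain where an aligner could place a read in either. The table names 25 chromosomes and 0 alternate contigs, and how reads with several matches were handled is not given in the sources used here; the part of such reads in the results was not tested.

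Most starts of the class I genes carried little signal, with 7 of 8 start regions below the median of all starts. Signal here means normalized reads averaged over the 4 libraries. Of the 20 regions, 8 lay within 1 kb of a member start, and their median signal was 23.1, against 60.0 over the 12033 start regions of protein-coding genes. B2M, the shared light chain, had the highest signal, 81.6 normalized reads in a region of 1744 bp, at percentile 64.0 of all start regions. The region also lies within 1 kb of the start of the neighbouring gene PATL2. The other 7 lay between 3.39 and 37.2, at percentiles 0.640 to 31.8.

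**Figure D1:**
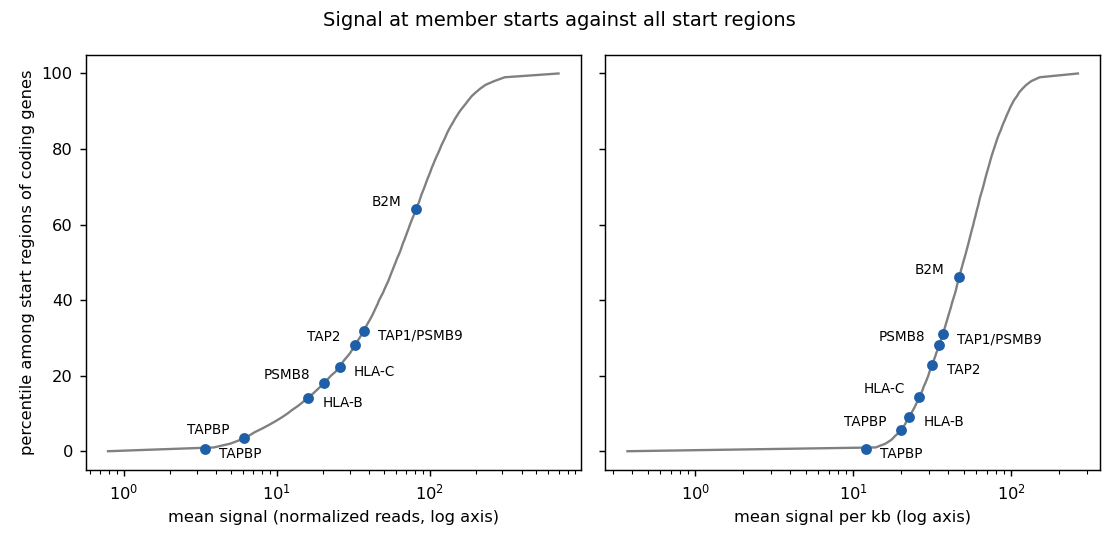
Mean signal of the 8 regions at member starts (points, named by gene) on the cumulative distribution of all start regions of protein-coding genes (line), as normalized reads (left) and per kb of region (right), both on log axes. B2M sits at percentile 64.0 by signal and 46.1 per kb, and the other 7 points lie at or below percentile 31.8.

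Divided by the width of the region, B2M had 46.8 normalized reads per kb. The stretch between TAP1 and PSMB9 had 36.8, the PSMB8 start 35.1, the TAP2 start 31.5, the HLA-C start 26.2 and the HLA-B start 22.5 normalized reads per kb. All 8 start regions were below the median of start regions, 49.6 normalized reads per kb. NLRC5, for which no start was used, is not among the 8. The region on the lower-coordinate end of its span had 57.5 normalized reads per kb, at percentile 60.0 of start regions. The TAPBP start itself was covered by no listed region. It lay between a region of 3.39 normalized reads that ended 376 bp inside the gene and a region of 6.09 that began 419 bp before it. From the value of 1 read in each library, which could be recovered, the means stood for 637 to 790 reads at B2M and 124 to 155 at HLA-B over all 4 libraries together, and for 26 to 33 in the weaker TAPBP region. Low signal was shared by the neighbourhood: between HLA-F and TAPBP on chromosome 6, the 80 start regions had a median of 28.1 normalized reads, and 9 of them (11.2%) reached 63.8, the lowest mean the authors adjusted, against 47.4% of all start regions.

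No member region passed the authors' test, and 1 of the 20 entered it. The adjusted p of the authors' deposited table (DESeq2, Benjamini-Hochberg) starts at a mean of 63.8 normalized reads and is listed as 1 below that. Only the B2M region reached this mean, so the adjusted p was under 0.05 in 0 of 1 tested members, against 1.02% of the 11185 regions tested in the authors' deposited table. The remaining 19 were not tested. By unadjusted p under 0.05 in the authors' deposited table, octanoate was higher in 1 of the 20 regions, against 3.58% of all nuclear regions (all but the mitochondrial one), and lower in 0, against 0.179%. That region lies in NLRC5 and was among the 19 not tested; of all such regions 2.48% were higher at this level in the authors' deposited table. The share of 1 in 20 is near the background. At starts it was 0 of 8, against 4.62% of all start regions, in the authors' deposited table. A count test was not run, since the table holds no value per library.

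**Figure D2:**
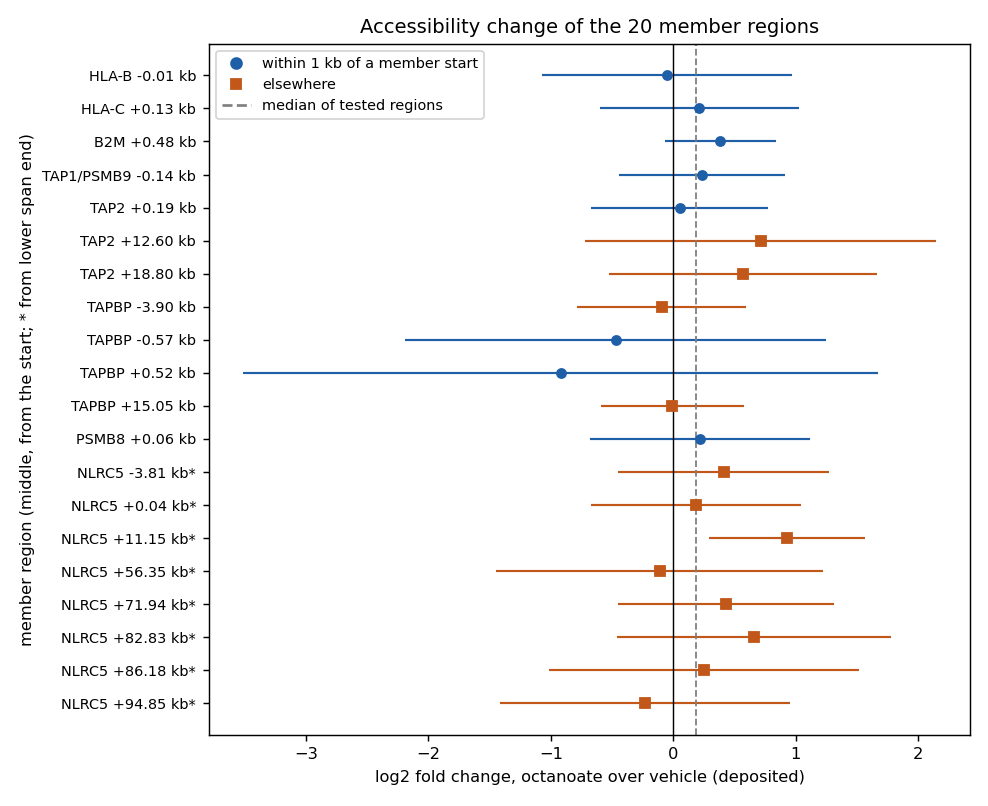
Deposited log2 fold change of octanoate over vehicle (x axis) for each of the 20 member regions, with 95% intervals from the deposited standard errors; labels give the gene and the distance of the region's middle from its start, in the direction of transcription, or for NLRC5 from the lower-coordinate end of its span. In 19 of 20 regions the interval includes 0.

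Among the heavy and light chains, the HLA-B region (chromosome 6, 31356831 to 31357539) showed a log2 fold change of -0.05 with a standard error of 0.52 (p = 0.921) in the authors' deposited table. The HLA-C region (chromosome 6, 31271467 to 31272449) had 0.21 with a standard error of 0.41 (p = 0.610) in the authors' deposited table. Both regions cover the start of their gene, and neither gene had another region within 5 kb. For B2M (chromosome 15, 44711129 to 44712872) the deposited mean and fold change together imply about 70.8 normalized reads in vehicle and 92.4 in octanoate. The log2 fold change of B2M was 0.38 with a standard error of 0.23 (p = 0.0951, adjusted p = 0.428) in the authors' deposited table. Its 95% interval, -0.07 to 0.84, includes 0 and lies below a doubling. In the authors' deposited table the median was 0.31 for chromosome 15 as a whole and 0.23 for all nuclear regions, and B2M was 0.20 above the median of tested regions. In the authors' deposited table B2M and HLA-B differed by 0.44 (log2), with a 95% interval of -0.68 to 1.55 from both standard errors taken as independent.

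TAP1 and TAP2 had 5 regions between them, 1 of these at the PSMB8 start, and 0 had a p under 0.05 in the authors' deposited table. The start region of TAP1 lies on the 488 bp between the TAP1 and PSMB9 starts (chromosome 6, 32853338 to 32854350) and belongs to both genes, which are read in opposite directions. Its log2 fold change was 0.23 with a standard error of 0.35 (p = 0.501) in the authors' deposited table. The TAP2 start (chromosome 6, 32838034 to 32839069) had 0.05 with a standard error of 0.37 in the authors' deposited table. A pair of weaker TAP2 regions, 1 inside the gene and 1 beyond its far end, had larger values, 0.71 and 0.57, with standard errors of 0.73 and 0.56 in the authors' deposited table. Their means were 8.65 and 14.6 normalized reads, and the 95% intervals of both included 0.

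All 4 TAPBP regions were below 0 in the authors' deposited table, as was the single HLA-B region. The pair around the TAPBP start had log2 fold changes of -0.92 and -0.47 with standard errors of 1.32 and 0.88 in the authors' deposited table, so neither could be told from 0. The better covered pair was near 0. The region at the far end of TAPBP, which lies within 1 kb of the start of RGL2, had 48.6 normalized reads and a log2 fold change of -0.01 (standard error 0.30) in the authors' deposited table. The region 3.47 kb before the TAPBP start, within 1 kb of the start of ZBTB22, had 35.8 normalized reads and -0.09 (standard error 0.35) in the authors' deposited table.

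Of the proteasome subunits, PSMB8 had a region at its outer start (chromosome 6, 32844330 to 32844913), within 1 kb of the start of the antisense transcript PSMB8-AS1. Its log2 fold change was 0.21 with a standard error of 0.46 (p = 0.640) in the authors' deposited table. PSMB9 had only the region shared with TAP1. The second RefSeq starts of TAP1 and PSMB8 had no listed region in the 250 bases before them. Start regions whose promoters match the letters searched for the interferon element (B2M, TAP1 and TAP2) had values of 0.05 to 0.38 in the authors' deposited table, and the pair of weak regions around the TAPBP start, which matches them too, had -0.92 and -0.47. Start regions without a match to these letters (HLA-B, HLA-C and PSMB8) had -0.05 to 0.21 in the authors' deposited table, and PSMB9, also without a match, shares the TAP1 region at 0.23, so the groups overlap. The absence of a match says only that these letters are not in the window, since elements with other letters were not searched.

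NLRC5 had the most regions, 8, spread over a span of 93964 bp, and 6 of them were above 0 in the authors' deposited table. The region with the smallest p of all members lies inside the gene, 10.7 kb from its lower-coordinate end (chromosome 16, 57000297 to 57001125). Whether this stretch is exonic or intronic was not analysed here. Its mean was 42.1 normalized reads, or 328 to 408 reads over the 4 libraries, the highest in the gene. The deposited mean and fold change imply about 29.0 normalized reads in vehicle and 55.2 in octanoate. Its log2 fold change was 0.93 with a standard error of 0.32 (p = 0.00411) in the authors' deposited table, a 1.91-fold difference with a 95% interval of 1.23 to 2.96. The region was not in the authors' adjustment because of its mean. Adjusted over all 125986 regions its p became 0.684 (Benjamini-Hochberg over the p-values of the authors' deposited table), so it did not pass. Among all nuclear regions, 757 (0.601%) had a p as small or smaller in the authors' deposited table. After the median of tested regions was subtracted, its log2 fold change was 0.74 and its p 0.0218; 1.08% of all nuclear regions were higher at p under 0.05 after this step.

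**Figure D3:**
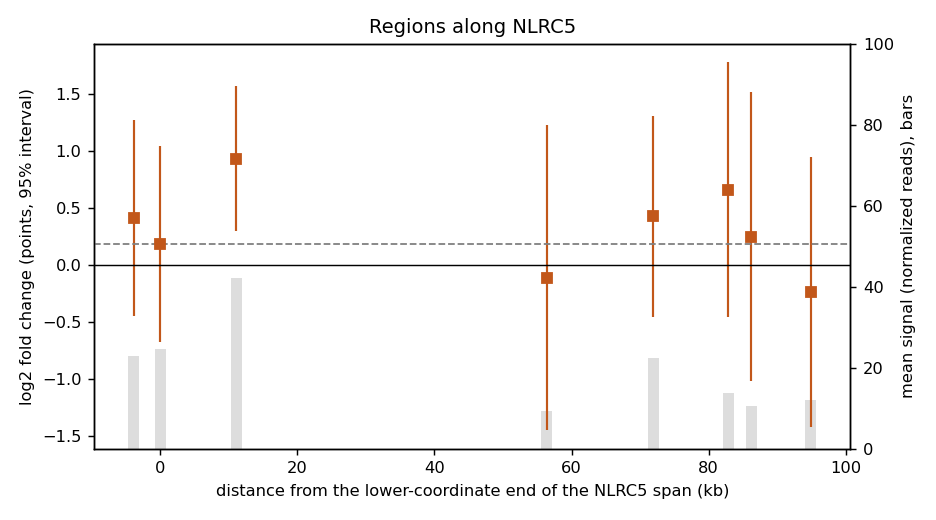
Log2 fold change (points, 95% interval, left axis) and mean signal (bars, normalized reads, right axis) of the 8 regions of NLRC5 by distance from the lower-coordinate end of the span; the dashed line is the median of tested regions. The region at 11.2 kb has the highest mean, 42.1, and is the point whose interval lies above 0.

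The neighbouring NLRC5 regions were weaker. The region on the lower-coordinate end of the span (56989382 to 56989808) had 24.5 normalized reads and a log2 fold change of 0.19 with a standard error of 0.44 in the authors' deposited table. The difference between it and the region inside the gene was 0.75, with a 95% interval of -0.32 to 1.81, so the pair did not differ beyond their error. The other 6 ranged from -0.23 to 0.66 in the authors' deposited table, with means of 9.46 to 22.9 normalized reads and 95% intervals that include 0.

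The median change of the members lay near that of all regions. Their median log2 fold change was 0.21 with 13 of 20 (65.0%) above 0 in the authors' deposited table, and all nuclear regions had 0.23 with 72.1% above 0. NLRC5 holds 8 of the 20 regions, and without them the authors' deposited table gives a median of 0.13 with 7 of 12 above 0. At starts the median was 0.13 over 8 member regions and 0.14 over all 12033 start regions in the authors' deposited table. The 12 members away from starts had 0.33, and nuclear regions away from starts 0.25, in the authors' deposited table. Of these 12, 8 belong to NLRC5, for which no start was used, so its region at the lower-coordinate end of the span counts as away from starts. With that region added, an alternative chosen after seeing the data, the authors' deposited table gives a median at starts of 0.19 over 9 regions. In the authors' deposited table, the median was 0.05 for the 11 member regions on chromosome 6, 0.12 for the 191 regions between HLA-F and TAPBP and 0.21 for the whole chromosome. Within that stretch the adjusted p (DESeq2) in the authors' deposited table was under 0.05 in 0 of 9 regions tested, against 1.02% of all tested regions. The unadjusted p there was under 0.05 in 0 of 191, against 3.58% higher and 0.179% lower among all nuclear regions, by the authors' deposited table. The stretch was chosen after the values had been seen.

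**Figure D4:**
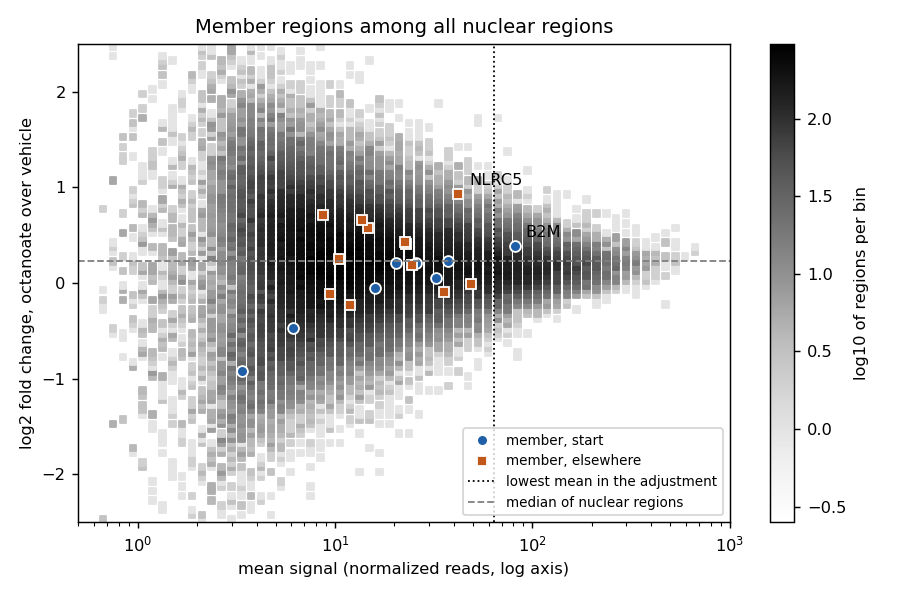
Log2 fold change of octanoate over vehicle (y axis) against mean signal (x axis, log scale) for nuclear regions (grey, darker for more regions per bin; a few outside the axes are not drawn) and the 20 member regions. The dotted line is the lowest mean in the authors' adjustment, 63.8, and B2M is the 1 member to its right.

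Precision set what could be seen. The median standard error of the members was 0.45 in the authors' deposited table, at which a 1.85-fold difference is needed for an unadjusted p of 0.05. The 95% intervals left out a doubling in 7 of 20 regions, a halving in 14 and both in 5. In the other regions a change of that size may be present and not detectable at this depth.

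Other genes of the pathway, and genes of the class II pathway, also gave no call. In 5 lists of such genes, 111 regions were found, 1 of them also a member. The class II list, which is not part of class I presentation, gave 19 of these regions, 5 of them tested. The adjusted p (DESeq2) in the authors' deposited table was under 0.05 in 0 of the 31 tested, against 1.02% of the 11185 regions tested. By unadjusted p under 0.05 in the authors' deposited table, 6 of 111 were higher after octanoate and 0 lower, against 3.58% and 0.179% of all nuclear regions. Of these 6, 2 were class II regions. Among the tested, 3 of 31 were higher at this level, against 14.8% of all tested regions in the authors' deposited table. Over the 111 regions, the authors' deposited table gives a median log2 fold change of 0.18. After the tested median was subtracted, 0 of the 111 had a p under 0.05 in either direction, against 2119 of all 125985 nuclear regions.

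Of the other class I heavy chains, HLA-E and HLA-F had 2 regions each, with values of -0.04 to 0.73 in the authors' deposited table, and HLA-G had 0. Among the 24 regions of loading and trimming genes, the start of CANX, which encodes the chaperone calnexin, was the 1 with p under 0.05: 209 normalized reads and a log2 fold change of 0.30 (standard error 0.15, p = 0.0481, adjusted p = 0.331) in the authors' deposited table. The 13 proteasome regions held 2 with p under 0.05, both in PSMB7, a constitutive subunit. The stronger PSMB7 region had 59.9 normalized reads and a log2 fold change of 0.67 (standard error 0.27, p = 0.0131) in the authors' deposited table, and the weaker 9.27 and 1.54 (standard error 0.72, p = 0.0331). Neither was in the authors' adjustment. PSME1 and PSME2, which encode the interferon-inducible proteasome activator, had 3 regions, with values of 0.09 to 0.57 in the authors' deposited table.

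Over the 50 regions of interferon signalling and promoter factor genes, the authors' deposited table gives a median of 0.19. The 1 with p under 0.05 lay within 5 kb of IRF1, the interferon-induced activator of class I genes, with 175 normalized reads and a log2 fold change of 0.36 (standard error 0.16, p = 0.0242, adjusted p = 0.248) in the authors' deposited table. JAK2, a kinase of the interferon gamma receptor, had a value of 0.14 (standard error 0.12) in its strongest region in the authors' deposited table. Of the 19 class II regions, 1 within 5 kb of CIITA, the class II counterpart of NLRC5, had a log2 fold change of 0.98 (standard error 0.42, p = 0.0203) with 25.1 normalized reads in the authors' deposited table. A region at CD74, the invariant chain, had 0.47 (standard error 0.22, p = 0.0368, adjusted p = 0.298) in the authors' deposited table.

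With limits of 0, 1 or 10 kb in place of 5 kb, 1 region had an unadjusted p under 0.05 in the authors' deposited table. That region lies inside the NLRC5 span, so every limit includes it and its p cannot change. The outermost member within the 5 kb limit lay 3.59 kb from NLRC5, with a value of 0.41 (log2 fold change, from the authors' deposited table). The nearest region outside the limit that belonged to no member lay 7.83 kb from NLRC5, with 0.21. Others outside lay 8.38 kb from B2M (0.46), 8.51 kb from TAPBP (-0.20), 9.69 kb from HLA-B (0.21) and 22.1 kb from HLA-C (0.10) in the authors' deposited table. The label of the cells was checked at marker genes: 5 of 8 melanoma and pigment cell genes had a region at their start or, without an entry in the promoter table, at a gene end, with summed signals from 0 to 186, the highest at MITF, and MLANA, TYR and TYRP1 had none there. For leukocyte genes it was 2 of 5 (0 to 70.1 normalized reads; PTPRC and CD14 were among those with none there) and for epithelial genes 1 of 3 (0 to 77.5; EPCAM and CDH1 had none there). Within 5 kb of the whole gene span, a region was listed for 8 of 8 melanoma and pigment cell genes, 3 of 5 leukocyte genes and 3 of 3 epithelial genes. PTPRC, which encodes the leukocyte surface phosphatase CD45, had 9 such regions, the highest at 93.3 normalized reads. The PTPRC region with p under 0.05 had 9.07 normalized reads and a log2 fold change of 1.57 (standard error 0.76, p = 0.0386) in the authors' deposited table, and was not in the authors' adjustment. The part of these markers in the results was not tested.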

How the data were processed

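The submitters' processing notes name Trim Galore, cutadapt, FastQC, Bowtie2, Picard, MACS2, featureCounts, DESeq2 and bedtools 2.29.1 and the build hg38, with no role or order. Peak merging, scaling and any Tn5 offset correction are not given in the sources used here. Per the labels' protocols, libraries had 12 PCR cycles and were sequenced as read pairs.

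The authors deposited 1 table; 0 of its columns hold a single library. The deposited signal is, per the file headers, a mean of normalized reads. Its log2 fold change (octanoate over vehicle) and standard error are the authors', its deposited score is the Wald statistic, and its deposited p-value the p of that score. The deposited adjusted p-value matched Benjamini-Hochberg run on the 11185 regions whose mean reached 63.8. In the other 114801 it was 1, and these count as not tested. Region starts were read as counted from 0 and are printed counted from 1. Levels implied per group, from mean and fold change, are approximate.

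Genes, spans and starts came from RefSeq GRCh38.p14. Reads were recovered from means under 8, which were sums of whole reads times 4 steps in 100% of 40448 regions (equal after rounding to 1e-06 normalized reads; 0.00247% once shifted by 0.0005); no step was assigned to a sample. Intervals are 95%, from deposited standard errors. Every member gene is named, with its start regions and its region of highest signal or lowest p; other genes are named where p was under 0.05, and HLA-E, HLA-F, HLA-G, PSME1, PSME2 and JAK2 were added as examples. A few genes of the lists enter the counts and are not reported here by name. The members and lists were chosen with earlier results of these data known. Centring and adjustment were tested on simulated data. Python 3.11.15, pandas 2.3.3, SciPy 1.17.1 and Biopython 1.88 were used.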

Additional observations from a re-analysis of the deposited data

How the results depend on the processing

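The count of 0 member regions and 0 other pathway regions at an adjusted p under 0.05 stayed 0 under centring on the median of tested or of all nuclear regions, Benjamini-Hochberg over all regions, and adjusted p under 0.1 or 0.01, and for members also with 0, 1 or 10 kb around the genes. Since 1 member was tested, this says little about stability. The count of 1 region at an unadjusted p under 0.05 stayed 1 in each setting run. This region lies inside the NLRC5 span, so a change of the limit could not remove it.

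The median log2 fold change of all 20 regions, 0.21, became 0.026 after centring on the tested median and -0.017 on the median of all nuclear regions, because about as much was subtracted. The median at starts, 0.13, likewise became -0.056 and -0.098, within the error of the members' mean. With tested regions only, it and the median at starts both became 0.38, the value of B2M alone. A median was called moved when it shifted by more than the error of the members' mean, taken as independent. Without NLRC5, an alternative chosen after seeing the data, the median was 0.13.

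No paired analysis was possible because single libraries have no column in the table. Other scalings, count tests and fits without a replicate were not run, for lack of such columns.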
